A study of Mus musculus with 4 samples.

Results

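The cells described here are Lgr5-positive crypt cells outside mitosis, profiled by single-cell RNA sequencing in small-intestinal crypts of mice after bone marrow transplantation. Of 16565 deposited barcodes, 12285 had at least 500 genes, at least 1000 UMIs (unique molecular identifiers, each one counted RNA molecule) and at most 20% mitochondrial UMIs. Of those, 219 met the rule for membership. A member carried at least 1 UMI of Lgr5, at most 2 UMIs summed over 7 mitotic genes (Mki67, Top2a, Ube2c, Ccnb1, Cenpa, Birc5 and Cdk1), less than 5% of its UMIs in Lyz1 and the alpha-defensins, and no UMI of Ptprc, the pan-leukocyte gene for CD45. The members numbered 58 in allogeneic library 1, 9 in allogeneic library 2, 101 in syngeneic library 1 and 51 in syngeneic library 2. Because the cells were chosen by their measured counts of these genes, the levels of those 32 rule genes and every contrast of the members with other cells are given as descriptions.

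The allogeneic libraries came from C57BL/6 recipients of BALB/c marrow, the mice with graft-versus-host disease, and the syngeneic libraries from C57BL/6 recipients of C57BL/6 marrow. All recipients had been lethally irradiated and all crypts were collected 7 days after transplantation, so no group was free of irradiation. Each library was prepared from 3 to 4 pooled female mice aged 8 to 12 weeks, and each group holds 2 libraries. The crypts were released with 10 mM EDTA for 40 minutes at 4 °C and dissociated with TrypLE for 20 minutes at 37 °C. With 2 pools a group, p-values measure the spread between these pools, and an exact permutation test of a single value cannot go below 0.333. The libraries' own names start with the letters KO, whose meaning is not given.

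Lgr5 encodes a receptor for R-spondins, which raise Wnt signalling at the crypt base. Lgr5-positive crypt base columnar cells sit between Paneth cells, renew themselves and give rise to the transit-amplifying cells that become absorptive or secretory epithelium. Olfm4, Ascl2, Smoc2 and Slc12a2 are their usual companion markers. Interferon gamma acts through the receptor chains Ifngr1 and Ifngr2 and, further on, the transcription factors Irf1 and Irf8 to induce guanylate-binding proteins, immunity-related GTPases, chemokines of the Cxcr3 receptor and both classes of MHC genes.

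The libraries held 16755124 and 26677842 UMIs in the allogeneic group and 18262459 and 14961466 UMIs in the syngeneic group. Barcodes over the mitochondrial limit made up 27.2% and 11.2% of the allogeneic and 14.6% and 14.9% of the syngeneic libraries. The members together held 302406 and 24437 UMIs in the allogeneic and 361456 and 195055 UMIs in the syngeneic libraries. Levels are given as CPM, counts per 1000000 of the summed UMIs of a library's members. In that unit 1 UMI equals 3.31 and 40.9 CPM in the allogeneic libraries, against 2.77 and 5.13 CPM in the syngeneic libraries. Allogeneic library 2, with its 9 members, is therefore the least precise of the 4. Intervals and floors below cover counting error only. Any 2 libraries shared 2 to 7 cell barcodes.

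The members carried the companion markers of stem cells. At least 2 of the 4 markers Olfm4, Ascl2, Smoc2 and Slc12a2 were detected in 87.9% and 66.7% of the allogeneic members and in 93.1% and 90.2% of the syngeneic members, and 6 members had none of them. Most members rested on little Lgr5 RNA, since 157 of the 219 had a single Lgr5 UMI. The highest Lgr5 count in a member was 7 and 2 UMIs in the allogeneic and 5 and 5 UMIs in the syngeneic libraries. At the mitotic limit, 8 and 1 allogeneic and 12 and 7 syngeneic members had 2 mitotic UMIs, while 9 and 6 allogeneic and 9 and 11 syngeneic cells with 3 such UMIs lay just outside. Between 4% and 5% of Lyz1 and defensin UMIs lay 2 and 0 allogeneic members and no syngeneic member, and from 5% to 6% lay 3 and 0 allogeneic and 0 and 3 syngeneic cells otherwise within the rule.

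The share of members among kept Ptprc-negative cells varied most between the allogeneic pools. It was 3.06% (exact 95% binomial interval 2.33 to 3.94) in allogeneic library 1 and 0.189% (0.0865 to 0.359) in allogeneic library 2, against 3.54% (2.89 to 4.28) and 2.09% (1.56 to 2.73) in the syngeneic libraries. The allogeneic value of library 1 lay between the syngeneic ones and that of library 2 below both. The mean share was 1.63 ± 2.03% for allogeneic libraries and 2.81 ± 1.03% for syngeneic ones (SD, n = 2 each), a difference of -1.19 percentage points with an exact two-sided permutation p of 0.667. Without allogeneic library 2 the difference was 0.249 points. These are shares of recovered cells, and fewer cells of a type cannot be told apart from fewer that pass dissociation, the filters or detection of 1 Lgr5 UMI.

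A smaller part of the Lgr5-positive cells was outside mitosis in the allogeneic libraries. Among Lgr5-positive cells that met the rule's other limits, 24.5% and 5.63% were non-mitotic in the allogeneic libraries, against 37.4% and 31.7% in the syngeneic libraries, and the groups did not overlap. The exact permutation p was 0.333, the smallest that 2 pools against 2 allow. Depth moved with this share: Lgr5-positive mitotic cells had medians of 11327 and 9748 UMIs in the allogeneic and 7388 and 7401.5 UMIs in the syngeneic libraries. With each cell thinned to 2000 UMIs the shares were 53.8% and 34.8% in the allogeneic, against 64.8% and 63.8% in the syngeneic libraries. The members themselves had medians of 4346 and 2333 UMIs in the allogeneic and 3043 and 3060 UMIs in the syngeneic libraries.

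**Figure D1:**
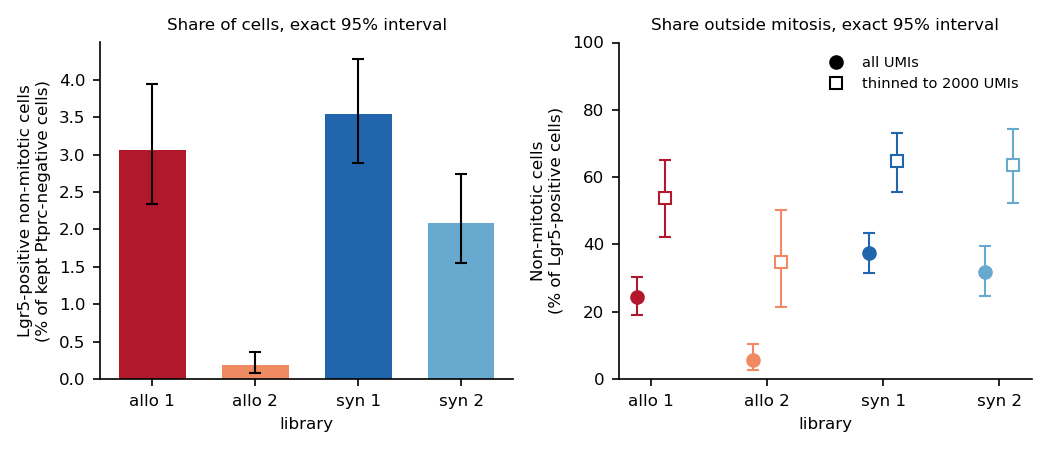
Left, members as a percentage of kept Ptprc-negative cells in each library; right, non-mitotic cells as a percentage of Lgr5-positive cells, from all UMIs (filled circles) and after thinning to 2000 UMIs (open squares). Error bars are exact 95% binomial intervals; allogeneic library 2 is lowest in both panels, at 0.189% and 5.63%.

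Against the Lgr5-negative non-mitotic cells of the same libraries (832 and 2903 allogeneic and 1429 and 1297 syngeneic cells), the members had the profile of crypt-base cells and little of that of enterocytes. Olfm4, a secreted glycoprotein of crypt-base cells, stood at 3624 and 2783 CPM in allogeneic and 6504 and 6475 CPM in syngeneic members. In the Lgr5-negative cells it stood at 529 and 53.5 CPM in the allogeneic and 936 and 644 CPM in the syngeneic libraries. Members were higher in each of the 4 libraries, by 3.12 ± 0.30 on the log2 scale (standard error, edgeR with library as a term). Smoc2, a secreted matricellular protein, was higher by 2.32 ± 0.25, the cholesterol-esterifying enzyme Soat1 by 2.40 ± 0.25, the Myc target Cdca7 by 2.44 ± 0.24 and the ephrin receptor Ephb3 by 2.53 ± 0.35. Outside the rule genes, all 21 stem cell markers tested had higher levels in the members, with a median log2 difference of 2.06 beside -0.04 over all 8730 genes tested. That contrast called 3328 genes, 38.1% of those tested, and it is the one the rule made, so these counts describe the cells and test nothing.

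Several groups beyond the markers differed in the same description. Over all 8730 genes tested, 16.2% were called higher and 21.9% lower in the members. Of 20 replication genes tested, 17 were higher in the members (median 1.42), among them the helicase subunits Mcm2 and Mcm3 with 1.87 ± 0.31 and 1.84 ± 0.29. Hes1, the Notch target that represses secretory fate, was higher by 1.98 ± 0.25, and Sox4 by 2.31 ± 0.24. Ifitm3, a membrane protein that restricts viral entry, had 1720 and 2742 CPM in allogeneic and 1707 and 2020 CPM in syngeneic members, against 528 and 188 CPM in allogeneic and 303 and 236 CPM in syngeneic Lgr5-negative cells. Its list ran the other way, with 2 of 17 antiviral genes tested higher and 9 lower in the members (median -1.28). Of the chemokines and other interferon gamma targets 3 of 19 were higher and 10 lower, and of the MHC class I genes 1 of 22 was higher and 10 lower. The interferon-induced GTPases differed from these lists, with 4 of 11 tested higher in the members and none lower (median 0.30). On the lower side were also all 9 enterocyte markers tested (median -5.34), 15 of 23 genes of oxidative phosphorylation and fatty acid oxidation, 9 of 15 glycolysis genes, 12 of 25 cell death genes and 8 of 11 antimicrobial genes. The fatty acid binding protein Fabp2 was lower by a log2 difference of -5.50 ± 0.34, the lectin Reg3b by -3.41 ± 0.29, the cyclin-dependent kinase inhibitor Cdkn1a by -3.58 ± 0.35 and the pore-forming protein gene Gsdmd by -2.28 ± 0.30. Chp2 and Pdzk1, a calcium-binding cofactor and a scaffold of brush border transporters, had no UMI in any member. The Lgr5-negative cells had 61.0 and 112 CPM of Chp2 in the allogeneic and 115 and 114 CPM in the syngeneic libraries. Of Pdzk1 they had 43.4 and 41.0 CPM in the allogeneic and 104 and 127 CPM in the syngeneic libraries. A floor of 3 UMIs in members equals 9.92 and 123 CPM in the allogeneic and 8.30 and 15.4 CPM in the syngeneic libraries. The 0 of allogeneic library 2 therefore shows no difference for either gene.

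**Figure D2:**
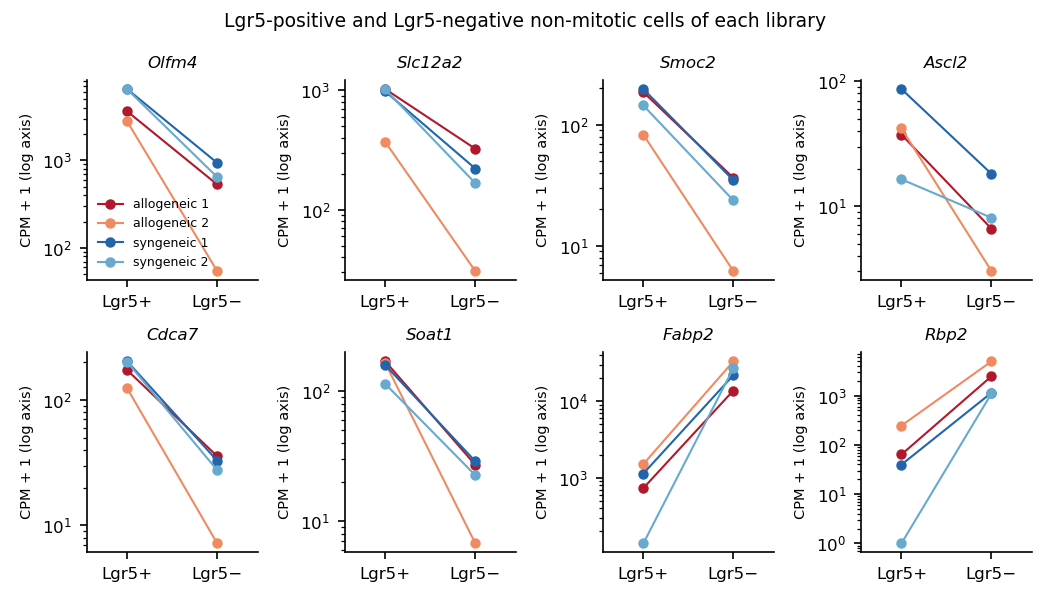
CPM plus 1 (log axis) of 8 genes in members (Lgr5+) and Lgr5-negative non-mitotic cells (Lgr5−), with a line for each library. Olfm4, Slc12a2, Smoc2, Ascl2, Cdca7 and Soat1 are higher in the members of all 4 libraries, while the enterocyte genes Fabp2 and Rbp2 are lower in all 4.

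Some members also held RNA of mature lineages, and more of the allogeneic ones did. Members with at least 2% of their UMIs in markers of enterocytes, goblet, Paneth, enteroendocrine or tuft cells numbered 21 (36.2%) and 2 (22.2%) in the allogeneic libraries, against 8 (7.92%) and 4 (7.84%) in the syngeneic libraries. Paneth markers led in 13 and 0 of these allogeneic and in 3 and 1 of these syngeneic members, and goblet markers led in 6 and 2 allogeneic and in 3 and 3 syngeneic members. Most Paneth markers are rule genes, and the rule limits their share of UMIs in every member. The Paneth counts, and the totals above that include them, are therefore given as descriptions. Olfm4 was still present in the members with at least 2% of such UMIs. It stood there at 2178 and 675 CPM in the allogeneic and 3749 and 2953 CPM in the syngeneic libraries. Scrublet, a doublet caller that marked 0.388% and 1.35% of the allogeneic and 0.139% and 0.446% of the syngeneic cells, marked no member. Whether such cells are mixed droplets, hold free RNA or are secretory precursors cannot be told apart here, so results are also given without them.

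Immune and stromal RNA was close to absent from the members. Summed over 9 markers of T and NK cells, allogeneic members held 3 and 0 UMIs and syngeneic members 0 and 0 UMIs, and 6 and 9 of the 9 markers were at 0 in the allogeneic and 9 and 9 in the syngeneic libraries. Ptprc is among these 9 and is 0 in every member by the rule. Choosing cells without Ptprc also bears on the other leukocyte markers, so these counts describe the chosen cells. Myeloid markers summed to 3 and 0 UMIs in the allogeneic and 2 and 1 UMIs in the syngeneic members. B cell markers and stroma markers each summed to 2 and 0 UMIs in the allogeneic and 2 and 0 UMIs in the syngeneic members.

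The comparison of allogeneic with syngeneic members asks how stem cells outside mitosis differ in graft-versus-host disease from those after transplantation alone. Genes of the interferon gamma response and of MHC class I presentation were higher in the allogeneic members, together with immediate-early and some secretory genes, while the lectins Reg3b and Reg3g and the urea cycle enzymes Otc and Cps1 were lower. Summed counts of each library's members were tested with edgeR's quasi-likelihood test and Benjamini-Hochberg adjustment over all 3802 genes in the fit. Calls were counted over the 3789 genes tested outside the rule. At an adjusted p under 0.05, 113 genes were called, 2.98% of those tested. Of these, 98 were higher (2.59%) and 15 lower (0.396%) in the allogeneic members, and the median log2 fold change of all genes tested was -0.03. For 108 of the 113, every library of one group lay above every library of the other. Over all genes tested, 16.5% separated in that way with allogeneic higher and 22.6% with allogeneic lower.

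The number of calls depended on single libraries. It was 109 without allogeneic library 1, 303 without allogeneic library 2, 19 without syngeneic library 1 and 23 without syngeneic library 2, and 28, 104, 11 and 11 of the 113 genes were among them. The direction of the calls moved too, to 48 higher and 61 lower without allogeneic library 1, where the median of all genes was -0.36, and to 205 higher and 98 lower without allogeneic library 2. Where 1 library stands for a group, the pair of the other group alone gives the spread. The genes Gbp2, Cxcl9, Ubd, Ido1 and Upp1 were called whichever library was left out. Fewer cells or less RNA per cell cannot be told apart in such sums. Gene lists are described by counts, and since a gene seen mainly in one group passes the filter on low counts only through that group, the counts over members that passed give no support of their own.

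All 6 interferon-induced GTPases tested had higher levels in each allogeneic library than in either syngeneic library, as did 16.5% of all genes tested. Gbp2, a guanylate-binding protein that attacks vacuoles of intracellular pathogens, had 182 and 491 CPM in allogeneic members, against 11.1 and 5.13 CPM in syngeneic members. Both allogeneic values were far above both syngeneic ones, with means of 336 ± 219 and 8.10 ± 4.20 CPM (SD, n = 2 each). The log2 fold change was 4.56 ± 0.54 (standard error) with an adjusted p of 1.30e-09 by edgeR's quasi-likelihood test, and Gbp2 was detected in 28 and 4 allogeneic, against 4 and 1 syngeneic members. Iigp1, an immunity-related GTPase, had 400 and 450 CPM in allogeneic and 63.6 and 76.9 CPM in syngeneic members, a log2 fold change of 2.58 ± 0.35 (edgeR adjusted p = 8.90e-08). It missed the threshold only without syngeneic library 1, at 2.40 with an adjusted p of 0.10 by the same edgeR test. Igtp and Gbp7 were higher by log2 fold changes of 2.55 ± 0.41 and 2.19 ± 0.47. Of 6 GTPase genes tested, from 17 in the files, 5 were higher (median log2 fold change 2.37), beside 2.59% of all genes tested. Without the lineage-rich cells 4 of 6 were higher. The count was 4 without allogeneic library 1, 1 without syngeneic library 1 and 2 without syngeneic library 2.

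After each member was thinned to 1000 UMIs, Gbp2 was detected in 22.4% and 11.1% of allogeneic and in none of the 101 and 51 syngeneic members, which at that depth allows shares of up to 2.97% and 5.88% of cells with a UMI among 1000. In Lgr5-negative non-mitotic cells it was detected in 5.77% and 7.23% of allogeneic and 1.05% and 1.08% of syngeneic cells. Iigp1 was detected in 32.8% and 44.4% of allogeneic and 6.93% and 3.92% of syngeneic members. In the Lgr5-negative cells its share was 8.89% and 9.65% in the allogeneic and 1.40% and 0.694% in the syngeneic libraries. At that depth Iigp1 was in none of 128 and 79 allogeneic and 4 and 16 syngeneic T cells. These had Ptprc, no Epcam and at least 2 UMIs over Cd3d, Cd3e, Cd3g, Trac and Nkg7. So few syngeneic T cells set only a loose limit.

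Of the chemokines and other interferon gamma targets, Cxcl9, Cxcl10, Ubd and Ido1 had few or no UMIs in syngeneic members. Cxcl9, a ligand of Cxcr3 on activated T cells, had 208 and 491 CPM in allogeneic and 11.1 and 15.4 CPM in syngeneic members, a log2 fold change of 4.25 ± 0.50 (edgeR adjusted p = 1.00e-09). A single allogeneic cell held 31 of the 63 Cxcl9 UMIs of library 1, while 14 and 4 allogeneic and 2 and 3 syngeneic members had at least 1. Cxcl10, another Cxcr3 ligand, had 38 and 1 UMIs in allogeneic members and none in syngeneic members, and 20 of the 38 came from 1 cell. Taken against a floor of 3 UMIs over the syngeneic group, it was at least 22.1-fold higher in the allogeneic members.

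Ubd, a ubiquitin-like modifier that marks proteins for the proteasome, had 122 and 655 CPM in allogeneic members, against 2.77 and 0 CPM in syngeneic members. The syngeneic value was 1 UMI in 1 cell, and the allogeneic UMIs were spread over 22 and 4 members. Per UMI counted, the allogeneic level was 90.2 times the syngeneic one (95% counting interval 15.5 to 3631), and the edgeR adjusted p was 5.14e-06. Ido1, the enzyme that opens tryptophan breakdown, had 103 and 696 CPM in allogeneic, against 2.77 and 0 CPM in syngeneic members, a ratio of 81.7 (14.0 to 3295; edgeR adjusted p = 0.00789). It was detected in 19 and 5 allogeneic members and in 1 syngeneic member. In this list 6 of 12 genes tested, from 23 in the files, were higher (median log2 fold change 1.97), beside 2.59% of all genes. The count was 3 without allogeneic library 1, 3 without syngeneic library 1 and 4 of 8 without the lineage-rich cells.

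The factors of the pathway itself had smaller fold changes. Irf1 had 222 and 450 CPM in allogeneic and 83.0 and 66.6 CPM in syngeneic members, a log2 fold change of 1.76 ± 0.37 (edgeR adjusted p = 0.000717). Irf8 was higher by 1.63 ± 0.33 and Ciita, the activator of MHC class II genes, by 1.49 ± 0.39. The groups did not overlap for any of these genes, and 16.5% of all genes tested separated with allogeneic higher. In the list of interferon receptors and factors, 4 of 10 genes tested were higher (median log2 fold change 0.71), beside 2.59% of all genes. The count was 1 without allogeneic library 1 and 0 without either syngeneic library. Of 8 antiviral genes tested, Dtx3l and Bst2 were higher, with log2 fold changes of 2.02 ± 0.53 and 1.53 ± 0.44, and Ifitm3 had 0.13 ± 0.31.

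MHC class I presentation had the longest list of higher genes. Of 19 genes tested from 22 in the files, 10 were higher and none lower (median log2 fold change 1.28). Over all genes tested, 2.59% were called higher and 0.396% lower. Without the lineage-rich cells 9 of 19 class I genes were higher. B2m, the class I light chain, had 1921 and 2537 CPM in allogeneic and 570 and 492 CPM in syngeneic members, a log2 fold change of 1.96 ± 0.32 (edgeR adjusted p = 6.62e-06). The heavy chains H2-D1 and H2-K1 had log2 fold changes of 1.59 ± 0.32 and 1.44 ± 0.32, and these 3 genes were picked out after their values were seen. Tap1, a subunit of the peptide transporter, had 258 and 164 CPM in allogeneic and 47.0 and 30.8 CPM in syngeneic members, a log2 fold change of 2.61 ± 0.40. The class Ib gene H2-T23 was higher by 2.03 ± 0.33. H2-Q6 and H2-Q7, near-identical neighbours whose reads the counting may have split, had log2 fold changes of 5.50 ± 0.68 and 2.91 ± 0.41, with 57 and 3 allogeneic against 2 and 0 syngeneic UMIs of H2-Q6. The count of higher class I genes was 5 without allogeneic library 1, 1 without syngeneic library 1 and 1 without syngeneic library 2. In single members, the median share of UMIs in class I genes was 1.06% and 1.22% in the allogeneic and 0.488% and 0.477% in the syngeneic libraries.

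Of 8 MHC class II genes tested, H2-DMb2 passed the threshold. It encodes a chain of the chaperone that loads peptides onto class II molecules, and it had 116 and 246 CPM in allogeneic and 0 and 5.13 CPM in syngeneic members. The allogeneic level was 69.8 times the syngeneic one per UMI counted (11.8 to 2824; edgeR adjusted p = 1.20e-07), with UMIs in 19 and 4 allogeneic members and 1 syngeneic member. Reads of its close copy H2-DMb1 may be split between them. The abundant chains were higher in each allogeneic library without passing. Cd74, the invariant chain, had 6293 and 6384 CPM in allogeneic and 3818 and 3963 CPM in syngeneic members (log2 fold change 0.64 ± 0.32, edgeR adjusted p = 0.40). H2-Eb1 and H2-Ab1 had log2 fold changes of 0.90 ± 0.32 and 0.83 ± 0.32, and the median of the list was 0.86.

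**Figure D3:**
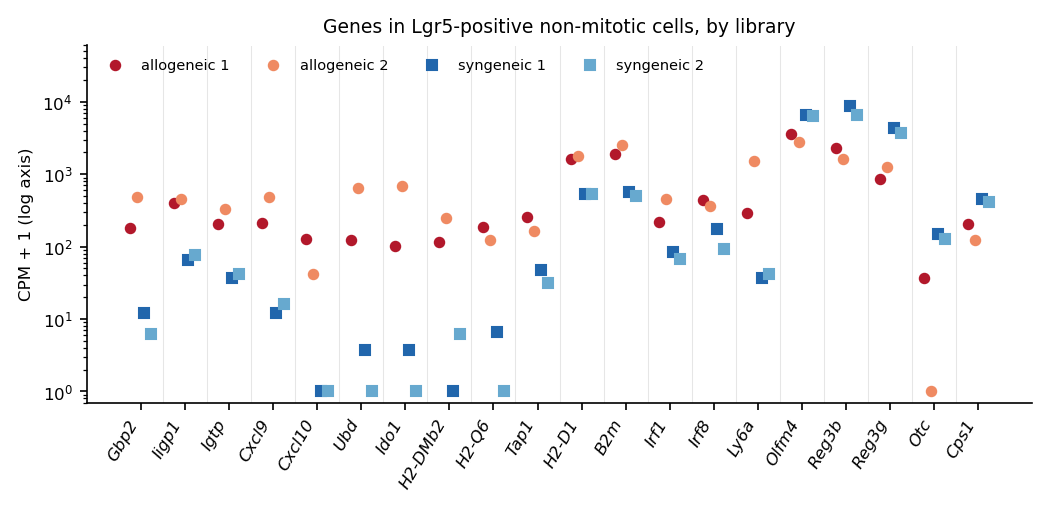
CPM plus 1 (log axis) of 20 genes in the members of each library, allogeneic libraries as circles and syngeneic libraries as squares. From Gbp2 to Ly6a every allogeneic value is above every syngeneic one, and from Olfm4 to Cps1 every allogeneic value is below; Ly6a and Olfm4 did not pass the edgeR threshold.

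**Figure D4:**
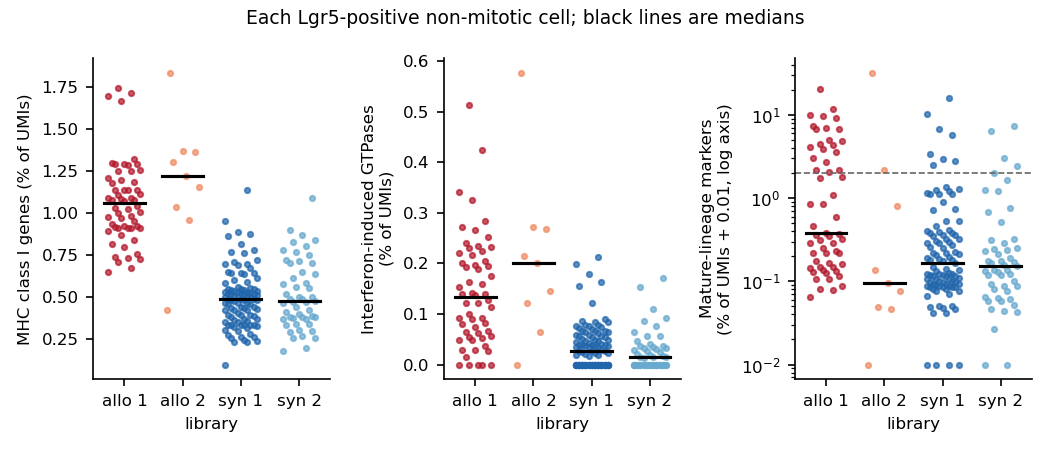
Each point is a member; the panels give the percentage of its UMIs in MHC class I genes, in interferon-induced GTPases and in mature-lineage markers (plus 0.01, log axis, dashed line at the limit of 2%), by library. Black lines are medians, which for class I are 1.06% and 1.22% in the allogeneic and 0.488% and 0.477% in the syngeneic libraries.

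The promoters of called genes were searched for 2 motifs of the interferon response, because the genes above moved together. TTCNNNGAA is the core of the gamma-activated site and GAAANNGAAA that of the interferon-stimulated response element, each searched on both strands from 250 bases before to 50 after the RefSeq gene start (build GRCm38.p6). TTCNNNGAA was present in 14 of the 78 higher genes with a RefSeq promoter (17.9%), against 7.12% of tested genes and 8.47% of all 27025 promoters. GAAANNGAAA was present in 12 of the 78 (15.4%), against 3.43% of tested genes and 3.49% of all promoters. Among 14 lower genes with a promoter, 1 held TTCNNNGAA and none GAAANNGAAA. A match here is a description of letters and shows no binding. The 4 sequences below are shown because these genes were among the higher ones named above and hold a motif, printed in capitals. Counted from the gene start, the motif's first base lies at -59 in Gbp2, -213 in Cxcl10 and -218 in H2-DMb2. In Igtp, TTCNNNGAA begins at -45 and GAAANNGAAA at -34. They run 5′ to 3′ along the gene's strand at chr3:142620413-142620712 (plus) for Gbp2, chr5:92348840-92349139 (minus) for Cxcl10, chr17:34144999-34145298 (plus) for H2-DMb2 and chr11:58199306-58199605 (plus) for Igtp.
Gbp2: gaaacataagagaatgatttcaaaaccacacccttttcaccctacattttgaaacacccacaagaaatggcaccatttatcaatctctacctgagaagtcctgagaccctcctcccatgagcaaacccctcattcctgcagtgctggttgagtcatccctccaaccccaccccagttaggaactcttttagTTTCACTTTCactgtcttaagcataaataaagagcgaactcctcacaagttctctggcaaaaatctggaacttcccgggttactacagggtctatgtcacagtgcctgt
Cxcl10: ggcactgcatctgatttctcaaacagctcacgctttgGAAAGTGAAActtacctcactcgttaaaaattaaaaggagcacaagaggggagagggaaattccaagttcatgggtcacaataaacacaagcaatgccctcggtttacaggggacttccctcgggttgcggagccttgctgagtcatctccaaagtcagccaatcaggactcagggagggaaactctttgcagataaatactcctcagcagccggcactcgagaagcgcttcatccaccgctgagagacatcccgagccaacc
H2-DMb2: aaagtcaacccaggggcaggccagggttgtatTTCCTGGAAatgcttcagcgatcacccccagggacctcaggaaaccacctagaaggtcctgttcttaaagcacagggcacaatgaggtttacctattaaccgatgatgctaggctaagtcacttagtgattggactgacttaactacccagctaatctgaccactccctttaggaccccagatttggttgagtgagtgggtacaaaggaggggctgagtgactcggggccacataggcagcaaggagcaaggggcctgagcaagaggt
Igtp: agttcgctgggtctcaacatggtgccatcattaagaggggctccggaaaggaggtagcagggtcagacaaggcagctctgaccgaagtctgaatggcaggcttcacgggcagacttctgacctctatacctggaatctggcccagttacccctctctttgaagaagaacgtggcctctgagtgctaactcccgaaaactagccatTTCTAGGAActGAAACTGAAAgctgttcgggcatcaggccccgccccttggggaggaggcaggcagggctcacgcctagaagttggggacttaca

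The stem cell programme itself did not pass the threshold in either direction. None of 18 stem cell markers tested was called by edgeR or by DESeq2 (median log2 fold change -0.04), nor were any of 9 Wnt and 2 Notch genes. At an unadjusted edgeR p under 0.05 were 2, 2 and 1 genes of these 3 lists, beside 481 of all 3789 genes. Olfm4 had 3624 and 2783 CPM in allogeneic and 6504 and 6475 CPM in syngeneic members, so both allogeneic pools were lower, with a log2 fold change of -1.04 ± 0.33 and an edgeR adjusted p of 0.0681. It passed the threshold without allogeneic library 1 (-1.51) or 2 (-0.78), where the syngeneic pair alone gives the spread. It did not pass without syngeneic library 1 (-1.04) or 2 (-1.12), with an edgeR adjusted p of 0.999 in each, nor by DESeq2, nor without the lineage-rich cells (-0.68). Lgr5, which chose the cells, had 321 and 409 CPM in allogeneic and 401 and 379 CPM in syngeneic members. The other markers overlapped between groups: Ascl2, a transcription factor of stem cell identity, had a log2 fold change of -0.63 ± 0.59, Smoc2 0.02 ± 0.35 and Slc12a2, a sodium, potassium and chloride cotransporter, -0.31 ± 0.34. Ccnd1, the G1 cyclin, had 188 and 81.8 CPM in allogeneic and 376 and 313 CPM in syngeneic members (log2 fold change -0.97 ± 0.34, edgeR adjusted p = 0.109). None of 19 replication genes tested was called by edgeR or DESeq2, and 4 had an unadjusted edgeR p under 0.05. Their median was -0.64, with 1 positive value among the 19.

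Ly6a, the surface protein Sca-1 that marks regenerating crypt epithelium, had 294 and 1514 CPM in allogeneic and 36.0 and 41.0 CPM in syngeneic members. Both allogeneic pools were above both syngeneic pools. The log2 fold change was 3.91 ± 0.83, with an edgeR adjusted p of 0.105. Scaled with DESeq2 size factors, Ly6a missed the threshold as well (3.94, edgeR adjusted p = 0.164). It passed the threshold by DESeq2 (4.32, adjusted p = 3.44e-06), without syngeneic library 1 (4.11) or 2 (4.23) and without the lineage-rich cells (3.98). It also passed without allogeneic library 1 or 2, with at least 3.00, where no spread between allogeneic pools enters the test. Olfm4 and Ly6a were detected together in 23 and 8 allogeneic and in 8 and 5 syngeneic members, while Olfm4 without Ly6a was seen in 29 and 0 allogeneic and in 89 and 43 syngeneic members. Of the 5 regenerative genes tested, Ly6e was higher, by 1.31 ± 0.35, while Krt19 and Anxa2 had -0.23 ± 0.32 and 0.26 ± 0.35.

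The secreted lectins Reg3b and Reg3g, which hold bacteria away from the epithelium, were lower in allogeneic members. Reg3g had 853 and 1269 CPM in allogeneic and 4368 and 3666 CPM in syngeneic members, a log2 fold change of -2.05 ± 0.34 (edgeR adjusted p = 8.21e-06). Reg3b had 2295 and 1637 CPM in allogeneic and 8850 and 6573 CPM in syngeneic members, a log2 fold change of -1.97 ± 0.34 (edgeR adjusted p = 3.36e-05). Neither overlapped between groups, and both were again called without the lineage-rich cells. Without syngeneic library 1 or 2 neither passed, with -1.90 and -2.22 for Reg3g and -1.75 and -2.25 for Reg3b. Both are abundant in the Lgr5-negative cells, where Reg3b stood at 19241 and 30065 CPM in the allogeneic and 40007 and 40719 CPM in the syngeneic libraries, lower in the allogeneic ones as well. The part of RNA from those cells in the result was not tested.

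Among the other lower genes were Otc, Cps1 and Mthfd1. Otc, the urea cycle enzyme that makes citrulline, had 36.4 and 0 CPM in allogeneic and 149 and 128 CPM in syngeneic members, a log2 fold change of -2.00 ± 0.49 (edgeR adjusted p = 0.00736). Cps1, which supplies Otc with carbamoyl phosphate, had 202 and 123 CPM in allogeneic and 454 and 410 CPM in syngeneic members, a log2 fold change of -1.16 ± 0.33 (edgeR adjusted p = 0.0297). With 1 library left out, Otc was called only without allogeneic library 2 and Cps1 only without allogeneic library 1 or 2. Neither was called by DESeq2 or with library totals, and Otc was not called without the lineage-rich cells. Mthfd1, a folate enzyme, had 3 and 0 UMIs in allogeneic and 21 and 15 UMIs in syngeneic members, a ratio of 0.142 (95% counting interval 0.0280 to 0.449). Fgfbp1, Dctpp1, a nucleotide pyrophosphatase, Rnf186, Coa3, Bex1, Clca3b and Rpp25l had log2 fold changes between -2.25 and -1.33. Their groups did not overlap, which was a condition for naming them.

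Immediate-early genes were higher in allogeneic members. Of 16 immediate-early and heat-shock genes tested, 8 were higher and none lower (median log2 fold change 1.69). Over all genes tested, 2.59% were called higher and 0.396% lower. Klf6 had 149 and 286 CPM in allogeneic and 38.7 and 20.5 CPM in syngeneic members, a log2 fold change of 2.37 ± 0.45, and the stress factor Atf3 had 2.07 ± 0.38. Nr4a1 had 14 and 2 UMIs in allogeneic and 3 and 0 UMIs in syngeneic members, and the chaperone partner Dnajb1 was higher by 1.98 ± 0.52. The count was 2 without allogeneic library 1, 3 without syngeneic library 1, 1 without syngeneic library 2 and 4 of 12 without the lineage-rich cells.

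Trp53inp1 and Btg2, p53 targets, were higher by log2 fold changes of 3.30 ± 0.64 and 1.27 ± 0.37, while Bax had 0.30 ± 0.37. Of 12 genes of the unfolded protein response Herpud1 was called (1.68 ± 0.36), and Hspa5 and Hsp90b1 had -0.04 ± 0.31 and -0.25 ± 0.33. Of 20 genes of oxidative phosphorylation and fatty acid oxidation Acadl was called (1.22 ± 0.36). None was called by edgeR or DESeq2 of 10 glycolysis, 14 reactive oxygen and 11 cell death genes tested. The median log2 fold changes were 0.05, -0.21 and 0.12, and 2, 0 and 0 genes had an unadjusted edgeR p under 0.05. Upp1, a uridine phosphorylase, had 139 and 450 CPM in allogeneic and 19.4 and 10.3 CPM in syngeneic members (log2 fold change 3.42 ± 0.53), with 32 of the 42 UMIs of allogeneic library 1 in 1 cell. Inf2, an actin-remodelling formin, was higher by 3.50 ± 0.61 and was detected in 19 and 4 allogeneic and 4 and 1 syngeneic members.

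**Figure D5:**
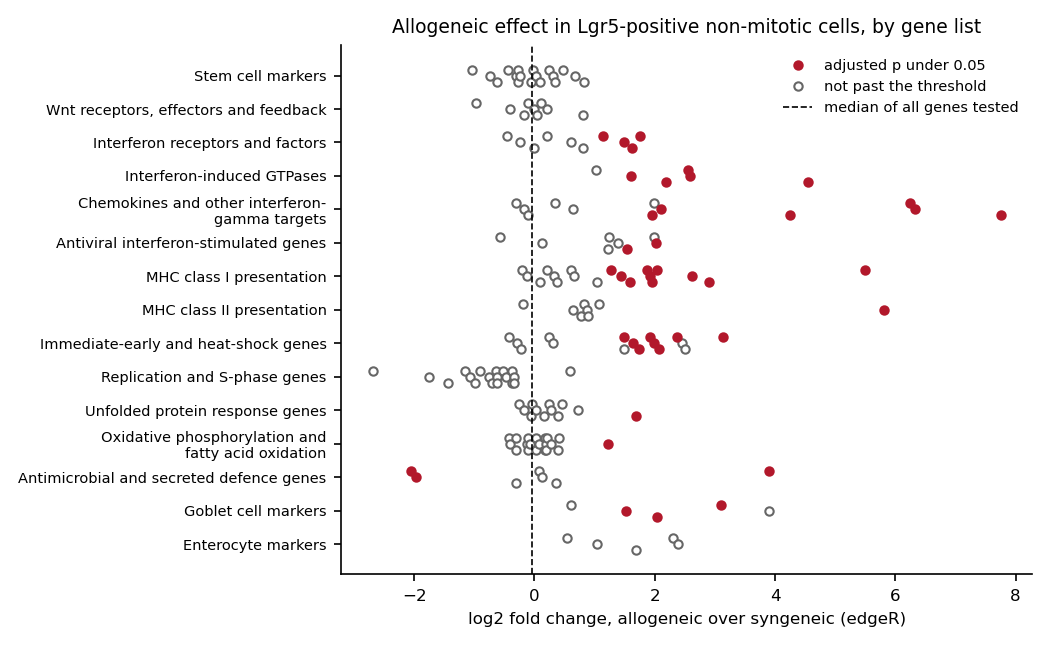
Log2 fold change of allogeneic over syngeneic members for each tested gene of 15 lists; filled points passed an adjusted p under 0.05 by edgeR's quasi-likelihood test and the dashed line is the median of all genes tested, -0.03. All 6 interferon-induced GTPases lie to the right of that line (median 2.37), MHC class I genes have a median of 1.28, and replication genes have one of -0.64 with no call.

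Genes of goblet and Paneth cells were also higher, and some of their counts rested on few cells. Tff3, a mucus-stabilising peptide of goblet cells, had 2407 and 3806 CPM in allogeneic and 213 and 461 CPM in syngeneic members, a log2 fold change of 3.11 ± 0.35 (edgeR adjusted p = 2.85e-10). Of the 93 Tff3 UMIs of allogeneic library 2, 86 were in 1 cell. Of 5 goblet markers tested, Tff3, Muc2 and Spink4 were higher, and none of 3 was called without the lineage-rich cells. There Tff3 had 2.16 with an edgeR adjusted p of 0.78. Goblet markers are among the genes that define lineage-rich cells, so these lost calls follow in part from the removal itself. Ang4, a ribonuclease of Paneth granules, had 466 and 246 CPM in allogeneic and 38.7 and 10.3 CPM in syngeneic members (log2 fold change 3.90 ± 0.42), in 13 and 2 allogeneic and 7 and 1 syngeneic members, and it was not tested without the lineage-rich cells. Slc6a19, an enterocyte amino acid transporter that is also among the higher genes, had its allogeneic UMIs in 2 and 1 members.

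Summed over all 8 goblet markers, the level was 9543 and 24307 CPM in allogeneic and 2103 and 3440 CPM in syngeneic members. The 8 Paneth markers, most of them limited by the rule, summed to 14130 and 3233 CPM in allogeneic and 3016 and 2784 CPM in syngeneic members, and the 10 enterocyte markers to 2083 and 4297 CPM in allogeneic and 1693 and 220 CPM in syngeneic members. None of the 5 enterocyte markers tested was called by edgeR or DESeq2, and 3 had an unadjusted edgeR p under 0.05. Without the lineage-rich cells 50 genes were called, among them 39 of the 113, while 35 were tested without a call and 39 were not tested.

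The Lgr5-positive mitotic cells of the same libraries (179 and 151 allogeneic and 169 and 110 syngeneic cells) gave the same comparison in other cells with more RNA. There 8915 genes were tested and 81 called (0.909%), 66 higher (0.740%) and 15 lower (0.168%) in the allogeneic cells. These cells come from the same 4 pools, so they add no independent animals. Gbp2 had 183 and 268 CPM in allogeneic and 15.3 and 13.4 CPM in syngeneic mitotic cells (log2 fold change 4.08 ± 0.37, edgeR adjusted p = 0.000904). Ly6a, which missed the threshold in the non-mitotic cells, had 586 and 2278 CPM in allogeneic and 33.3 and 26.7 CPM in syngeneic mitotic cells (5.72 ± 0.67, edgeR adjusted p = 0.00306). Reg3g had 880 and 946 CPM in allogeneic and 3163 and 3881 CPM in syngeneic mitotic cells (-1.84 ± 0.27, edgeR adjusted p = 0.00922), and Otc had -2.16 ± 0.30. Of the lists, 12 of 14 GTPases, 11 of 18 chemokines and interferon gamma targets and 9 of 22 class I genes were higher. None of 24 stem cell markers was called by edgeR, and 2 had an unadjusted p under 0.05. Tff3 had 873 and 363 CPM in allogeneic and 683 and 786 CPM in syngeneic mitotic cells, with a log2 fold change of -0.18 ± 0.36.

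Whether the allogeneic effect differed between members and Lgr5-negative non-mitotic cells was tested with an interaction term over 9946 genes. It called 16 genes (0.161%), 15 with the larger fold change in the members (0.151%) and 1 with the smaller (0.0101%). None belonged to the lists of interferon, GTPase, chemokine or MHC genes, of which 3 of 20 interferon receptors and factors, 1 of 14 GTPases, 5 of 20 chemokines and other targets, 1 of 22 class I and 0 of 8 class II genes had an unadjusted edgeR p under 0.05. DESeq2 called 1 gene in all. On the log2 scale the interaction was 1.40 ± 0.79 for Gbp2, -0.92 ± 0.51 for Iigp1, -0.08 ± 0.55 for B2m and -1.62 ± 0.55 for Reg3b, with adjusted p of 0.902, 0.89, 1 and 0.405 by edgeR's quasi-likelihood test. A difference that misses the threshold does not show that both cell populations responded alike. The 6 genes with the smallest adjusted p were Ghrl, Fcgbp, Tff3, Fabp6, Muc2 and Itln1, which belong to enteroendocrine, goblet, enterocyte and Paneth cells. With lineage-rich cells removed from both cell sets edgeR called no gene, with 358 at an unadjusted p under 0.05. Fcgbp, Tff3, Muc2 and Itln1 are among the markers used for that removal.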

How the data were processed

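The files hold UMI counts per gene and cell barcode for 4 libraries of mouse crypt cells, as deposited by the authors and not normalized. Per the labels' protocols the libraries were made with the 10x Genomics single-cell 3′ kit. Per the submitters' processing notes, Cell Ranger 2.1.1 and mm10 were used, while the deposited matrix header gives software version 3.1.0. Of the annotation and the rule for keeping barcodes, nothing is said in the sources used here. Dense text copies of the counts were not used.

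The members and gene lists were chosen with earlier results of these data known. Counts of each library's members were summed and tested with edgeR 4.0.16 (quasi-likelihood test, TMM scaling, Benjamini-Hochberg adjustment at 0.05). Those of the 32 rule genes that passed the filter stayed in the fit and its adjustment. They were left out of the counts of genes tested and called. Genes were filtered with filterByExpr. Standard errors are the absolute log2 fold change divided by the square root of the test's F statistic. The contrast with Lgr5-negative cells and the interaction had library as a term. CPM uses all UMIs of the summed cells. Lists were fixed and named genes taken by rule: the 5 cell markers, up to 12 genes higher and 12 lower by fold change with at least 50 CPM and no overlap of libraries, up to 4 per list, and 6 for the interaction. A few others are said to be chosen after their values were seen. Replicate numbers follow record order and pair no libraries. Alternatives were other scalings, DESeq2 1.42.0, other filters, each library left out, other cell limits, Scrublet (scanpy 1.11.5), thinning and removal of lineage-rich cells. The last took such cells out of the members, the Lgr5-negative cells and the denominators of shares. Values of lineage markers after it follow in part from the removal. The code was tested on simulated data. A few genes are not reported here. Gene positions are GENCODE on GRCm38.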

Additional observations from a re-analysis of the deposited data

Results flagged for a closer look

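A test of the difference itself, the interaction term of edgeR, found 16 genes whose allogeneic effect differed between Lgr5-positive and Lgr5-negative non-mitotic cells, of 9946 tested (0.161%). The 6 with the smallest adjusted p are genes of mature lineages, and single cells held many of their UMIs in at least 1 allogeneic library. For Fcgbp, Tff3 and Muc2 that was allogeneic library 2, and their spread over the cells of library 1 is not given here. Ghrl, the hormone ghrelin, had an interaction of 7.70 on the log2 scale, and all 123 of its allogeneic member UMIs were in 1 cell. Fcgbp, a mucus protein, had 4.45, with 64 of the 65 UMIs of allogeneic library 2 in 1 cell. Tff3 had 3.61, with 86 of the 93 UMIs of that library in 1 cell. Without that library the allogeneic effect on Tff3 in the members was 2.97 on the log2 scale. Fabp6, the ileal bile acid binding protein, had 3.53, with 121 UMIs in 1 cell of allogeneic library 1. Muc2, the gel-forming mucin, had 2.79, with 43 of 44 UMIs of allogeneic library 2 in 1 cell, and Itln1, a lectin of Paneth cells, had 2.83, with 191 of 573 UMIs of allogeneic library 1 in 1 cell. Lineage-rich members moved with these values, at 36.2% and 22.2% of allogeneic and 7.92% and 7.84% of syngeneic members. Their shares are descriptions, since most of the Paneth markers counted in them are limited by the rule. With lineage-rich cells removed from members and Lgr5-negative cells alike, edgeR called no gene, with 358 at an unadjusted p under 0.05. Fcgbp, Tff3, Muc2 and Itln1 are among the markers that define lineage-rich cells, so that outcome follows in part from the removal. The part of the lineage-rich members alone was not tested.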

How the results depend on the processing

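The 113 genes called for the allogeneic effect became 95 with DESeq2 size factors, 36 with library totals, 17 with DESeq2, 77 without a low-count filter, 54 at a mean of at least 20 CPM, 31 at a mitochondrial limit of 10%, 43 with at least 2 Lgr5 UMIs, 56 with 0 mitotic UMIs, 14 with cells thinned to 2000 UMIs, 50 without lineage-rich cells, and 19 to 303 with 1 library left out. The 3328 genes differing from Lgr5-negative cells became 2251 with DESeq2, 1879 at the 10% limit, 1799 with at least 2 Lgr5 UMIs, 1715 thinned, 1811 without lineage-rich cells and 1919 to 3554 with 1 library left out. They split into 1415 higher and 1913 lower, into 2161 and 1404 with library totals (median 0.22) and into 937 and 2385 without a filter. The 16 interaction genes became 27 with library totals, 1 with DESeq2, 7 without a filter, 25 at 20 CPM, 6 at the 10% limit, 6 with at least 2 Lgr5 UMIs, 4 with 0 mitotic UMIs, 3 thinned, 0 without lineage-rich cells and 1 to 90 with 1 library left out, where the 90, without allogeneic library 1, split into 11 larger and 79 smaller in the members. In the fit without allogeneic library 1 the median interaction over all genes tested was -5.26 on the log2 scale. Because the whole fit was shifted that way, its split into larger and smaller shows no reversal of the interaction. The difference in share was -3.21 points without lineage-rich cells and ranged from -2.62 to 0.249 points with 1 library left out.

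Some named genes changed sign. For the allogeneic effect these were Pigr (-1.55 to 0.54 with 1 library left out, negative without allogeneic library 1), Fabp2 (-2.52 without lineage-rich cells) and Muc2 (-0.19 thinned). Against Lgr5-negative cells they were Gbp2 (-0.089 with at least 2 Lgr5 UMIs), Chgb (-1.02 at the 10% limit) and, without lineage-rich cells, Agr2 (0.72), Spink4 (0.88), Mmp7 (1.51) and Itln1 (1.54). For the interaction Ghrl changed sign (-5.43 with 0 mitotic UMIs, -0.61 thinned). Without allogeneic library 1 Ghrl was at -5.20, near the median of -5.26 over all genes tested in that fit. Fabp6 also changed sign (-0.35 at the 10% limit, -0.89 with at least 2 Lgr5 UMIs, -0.61 with 0 mitotic UMIs, -0.38 thinned). So did, without lineage-rich cells, Muc2 (-1.11) and Itln1 (-0.14). The cause was not tested. No paired analysis was possible because replicate numbers follow the order of the records and the labels tie no libraries together. Depth limits the allogeneic group most, where 9 members with 24437 UMIs stand for 1 of its 2 libraries.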

Other observations

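Several genes called higher in allogeneic members lay outside the lists, and those given here were chosen after their values were seen. Nfkbia, the inhibitor of NF-kappa B, had 231 and 327 CPM in allogeneic and 74.7 and 87.2 CPM in syngeneic members, a log2 fold change of 1.65 ± 0.36 (edgeR adjusted p = 0.00144). Mt2, a metal-binding metallothionein, had 357 and 286 CPM in allogeneic and 99.6 and 92.3 CPM in syngeneic members (1.85 ± 0.34). Wars, the tryptophanyl-tRNA synthetase, had 367 and 286 CPM in allogeneic and 94.1 and 87.2 CPM in syngeneic members (1.96 ± 0.34). Without the lineage-rich cells Mt2 and Wars were again called and Nfkbia was not. None of the 3 was called without allogeneic library 1, without syngeneic library 1 or without syngeneic library 2.

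Genes of the enterocyte brush border were also among the calls, although no enterocyte marker of the list passed. Vil1, the actin-bundling villin, had 212 and 246 CPM in allogeneic and 83.0 and 113 CPM in syngeneic members (log2 fold change 1.23 ± 0.36), and Cdhr2, an intermicrovillar cadherin, had 106 and 246 CPM in allogeneic and 22.1 and 5.13 CPM in syngeneic members (2.92 ± 0.58). Guca2a, the guanylin precursor, had 565 and 286 CPM in allogeneic and 102 and 159 CPM in syngeneic members (1.99 ± 0.33). Of these 3, Vil1 was tested without the lineage-rich cells, and it was not called there.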
